A study of Mus musculus with 10 samples.

Results

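The mitophagy and autophagy genes described here are 9 of the 20156 rows of the counts table, chosen by symbol: Pink1, Bnip3, Bnip3l, Fundc1, Sqstm1, Optn, Map1lc3b, Gabarapl1 and Ulk1. All 9 were found and all 9 passed the filter on low counts, which left 16180 genes. The RNA was from hippocampus, sequenced with 1 library per mouse, and the comparison asks which transcripts differ between the genotypes. The groups were 5 mice of the genotype labelled Tfam AKO (TfamAKO) and 5 wild-type (WT) mice, all aged 6 months. The series title speaks of astrocytic mitochondria, while the labels give neither the deleted part of Tfam, nor the driver of the deletion, nor strain or sex. RNA of the whole hippocampus holds all of its cell types, so fewer cells of a type and less RNA per cell cannot be told apart.

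Autophagy encloses cell material in a double membrane and delivers it to the lysosome, and mitophagy is its selective form for mitochondria. The kinase ULK1 starts the process, and the ubiquitin-like ATG8 proteins, among them LC3B (Map1lc3b) and GABARAPL1, are attached to the growing membrane. Receptors join cargo to ATG8 proteins. On damaged mitochondria the kinase PINK1 acts to build up ubiquitin that is read by receptors such as optineurin (Optn) and p62 (Sqstm1), whereas BNIP3, NIX (Bnip3l) and FUNDC1 sit in the outer mitochondrial membrane and bind ATG8 proteins directly. In brain this turnover is best known from neurons and from inherited disease with PINK1 mutations.

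Proximal promoter sequence is shown for the 3 genes described here whose libraries did not overlap between the genotypes, Sqstm1, Optn and Gabarapl1. Such a separation, in either direction, was found for 23.9% of all genes tested, so it is not particular to these genes. Sequence is also shown for Bnip3, the gene with an E-box. The sequences are from RefSeq (GRCm38.p6), written 5′ to 3′ in the direction of the gene, from base -250 before the annotated start up to the nearest annotated exon. Capitals mark the GC box GGGCGG on either strand in Sqstm1, Optn and Gabarapl1, and the E-box CACGTG in Bnip3.
Sqstm1 (chr11:50210828-50211070, minus strand): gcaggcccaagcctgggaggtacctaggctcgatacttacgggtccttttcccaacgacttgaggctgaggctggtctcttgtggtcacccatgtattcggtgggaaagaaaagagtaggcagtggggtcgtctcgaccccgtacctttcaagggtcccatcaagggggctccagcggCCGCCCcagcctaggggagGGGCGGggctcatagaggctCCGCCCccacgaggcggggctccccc
Optn (chr2:5064118-5064367, minus strand): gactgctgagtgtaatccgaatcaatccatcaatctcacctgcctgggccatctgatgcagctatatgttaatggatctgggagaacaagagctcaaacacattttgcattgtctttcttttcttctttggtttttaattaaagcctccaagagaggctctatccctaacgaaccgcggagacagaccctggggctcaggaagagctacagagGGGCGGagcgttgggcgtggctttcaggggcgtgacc
Gabarapl1 (chr6:129532942-129533159, plus strand): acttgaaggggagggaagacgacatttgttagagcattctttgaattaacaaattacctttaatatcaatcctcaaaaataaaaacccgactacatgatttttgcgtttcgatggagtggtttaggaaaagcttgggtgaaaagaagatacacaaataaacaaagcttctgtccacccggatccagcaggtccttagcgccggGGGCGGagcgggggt
Bnip3 (chr7:138909520-138909756, minus strand): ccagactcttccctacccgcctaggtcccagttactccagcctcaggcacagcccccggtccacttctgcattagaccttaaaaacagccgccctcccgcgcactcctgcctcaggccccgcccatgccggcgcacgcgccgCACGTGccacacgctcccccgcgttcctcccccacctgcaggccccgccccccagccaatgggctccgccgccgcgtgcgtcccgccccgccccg

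Windows of 250 bases before to 50 after the start were searched on both strands for 8 of the 9 genes, those with an entry in the RefSeq table. The E-box CACGTG, the core of the element read by the lysosomal regulators TFEB and TFE3, lay at bases -108 to -103 of Bnip3 and in no other of the 8; it is held by 7.15% of the 32851 windows in the table. The hypoxia-response core, searched as ACGTG only, was found in Bnip3, where it overlaps the E-box on both strands, and in 19.6% of all windows. The form GCGTG was not searched. The antioxidant-response core TGACNNNGC was found in Map1lc3b, after the start, and in 12.4% of all windows. The motif TGATGNAA, read by ATF4 with C/EBP partners, was in 0 of the 8 windows and in 3.97% of all. TATAAA was found in Sqstm1 at bases -1 to 5, across the annotated start (13.6% of all windows), and GGGCGG in 7 of 8, all but Fundc1 (35.7% of all windows). A match describes letters in a window, not a bound site.

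Levels are counts scaled to a common library total with TMM factors (CPM), and log2 fold changes are TfamAKO minus WT with a standard error (SE). Both ubiquitin-binding receptors, Sqstm1 and Optn, rose in TfamAKO hippocampus, and the ATG8 gene Gabarapl1 and the outer-membrane receptor Bnip3l fell by small amounts, Bnip3l in the counts but not in the authors' normalized values. The Bnip3l call stood at the threshold also in the counts and was kept in only 5 of 24 alternative settings. Pink1, Bnip3, Fundc1, Map1lc3b and Ulk1 did not pass the test (edgeR quasi-likelihood test, Benjamini-Hochberg adjusted over all genes, threshold 0.05). The share that passed, 4 of 9 (44.4%), stood beside 37.4% of all genes tested; 20.8% of all genes were higher and 16.6% lower in TfamAKO. The median log2 fold change of the 9 genes was -0.12, against -0.02 over all genes. The share of genes called among the 9 was thus close to the background.

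Total counts ran from 19558377 to 28675367 in TfamAKO and from 16584245 to 26032470 in WT. The targeted gene Tfam was at 23.6, 22.7, 19.6, 23.1 and 23.4 CPM in TfamAKO 1 to 5, against 31.7, 33.0, 20.6, 32.5 and 30.4 CPM in WT 1 to 5. The library labelled WT 3 had Tfam in the TfamAKO range; without it Optn, Sqstm1 and Gabarapl1 kept their calls (edgeR adjusted p = 0.00165, 0.00937 and 0.0149). The Y-linked gene Kdm5d reached 22.7 and 22.4 CPM in TfamAKO 4 and 5 alone. Without both of those libraries Optn, Sqstm1 and Gabarapl1 also kept their calls (edgeR adjusted p = 0.00154, 0.00512 and 0.0363). Marker sums moved with genotype: 5 of 8 neuron markers fell (sum 7797 to 9164 CPM in TfamAKO, 10030 to 10960 CPM in WT), 7 of 8 microglia markers rose (510.0 to 603 CPM in TfamAKO, 293 to 351 CPM in WT) and 5 of 6 endothelial markers rose (292 to 473 CPM in TfamAKO, 191 to 251.6 CPM in WT). Of 8 astrocyte markers 4 rose and 2 fell (3962 to 6356 CPM in TfamAKO, 3321 to 4084 CPM in WT), and of 8 oligodendrocyte markers 1 rose and 1 fell (5550 to 7567 CPM in TfamAKO, 5181 to 8975 CPM in WT). All 8 choroid plexus markers fell (36.5 to 133 CPM in TfamAKO, 42.6 to 5652 CPM in WT, with WT 3, 4 and 5 high). The choroid plexus covariate used below is thus high in WT libraries only and overlaps in part with genotype. A call lost with it cannot be assigned to either. No marker was at 0 in any library, and the part of these cell types in the results was not tested.

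Optn, which encodes the ubiquitin-binding receptor optineurin, was measured at 23.4, 33.0, 33.6, 27.9 and 25.7 CPM in TfamAKO 1 to 5, against 18.9, 18.3, 16.7, 18.2 and 16.2 CPM in WT 1 to 5. Every TfamAKO library lay above every WT library, a separation found upward for 14.5% of all genes and in either direction for 23.9%. Optn rose 1.63-fold (log2 fold change 0.70 ± 0.11 SE, edgeR adjusted p = 0.000392), the widest difference among the 9 genes. The spread between mice, as coefficient of variation, was 15.7% in TfamAKO and 6.59% in WT. Over the 9950 genes that averaged at least 10 CPM in both groups, the median spread was 9.81% in TfamAKO and 7.56% in WT. Optn kept its call when WT 3, 4 and 5 were left out (log2 fold change 0.65, edgeR adjusted p = 0.0239).

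Sqstm1, whose product p62 binds both ubiquitin and ATG8 proteins and is itself degraded by autophagy, was measured at 504, 573, 568, 565 and 500.3 CPM in TfamAKO 1 to 5, against 439.8, 465, 419, 454 and 445 CPM in WT 1 to 5. The groups did not overlap, and TfamAKO 1 and 5 were nearest to WT. Sqstm1 rose 1.22-fold (log2 fold change 0.29 ± 0.06 SE, edgeR adjusted p = 0.00265). Without WT 3, 4 and 5 the log2 fold change was 0.28 and the adjusted p 0.0550, with 2 WT libraries left in that edgeR fit. These are transcript levels, and the amount of p62 protein was not measured.

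Gabarapl1, an ATG8 gene of the GABARAP branch, was measured at 480.8, 465, 468, 481 and 435 CPM in TfamAKO 1 to 5, against 542, 547, 500.2, 522 and 535 CPM in WT 1 to 5. The groups did not overlap, a separation found downward for 9.43% of all genes. Gabarapl1 fell to 0.881-fold of WT (log2 fold change -0.18 ± 0.05 SE, edgeR adjusted p = 0.0132). It lost its call without WT 3, 4 and 5 (log2 fold change -0.20, edgeR adjusted p = 0.0901).

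**Figure D1:**
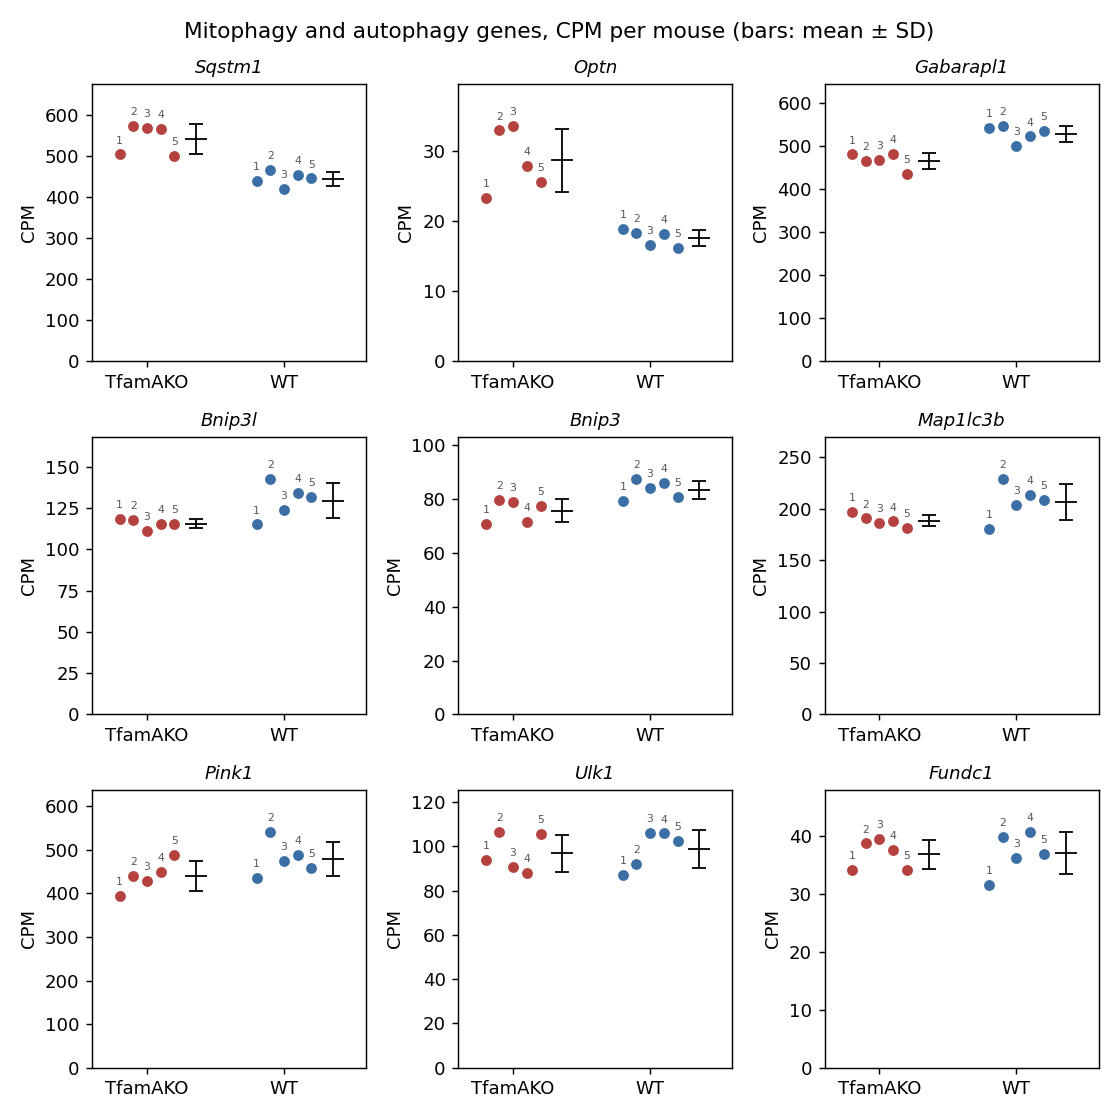
CPM of each of the 9 genes (y axes, from 0) in 5 TfamAKO and 5 WT libraries (x axes, numbered by replicate), with the mean ± SD drawn beside the points. Optn and Sqstm1 sit higher in all TfamAKO libraries, Gabarapl1 sits lower in all of them, and the groups overlap for the other 6 genes.

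Bnip3l encodes NIX, the outer-membrane receptor that clears mitochondria from maturing red cells. It was measured at 118, 118, 111, 115 and 115 CPM in TfamAKO 1 to 5, against 115, 142, 124, 134 and 132 CPM in WT 1 to 5. WT 1 lay within the TfamAKO range and the other 4 WT libraries above it. Its log2 fold change of -0.16 ± 0.06 (SE) stood at the threshold (edgeR adjusted p = 0.0481). The call was lost without WT 2 (adjusted p = 0.169), WT 3 (0.0575), WT 4 (0.0993), WT 5 (0.0744), TfamAKO 2 (0.0791), TfamAKO 3 (0.114), TfamAKO 4 (0.0858) or TfamAKO 5 (0.0609). It was kept without WT 1 (0.0149) or TfamAKO 1 (0.0465). A pseudogene, Bnip3l-ps, is annotated in GENCODE M21 and is not a row used here; whether reads were shared between them was not tested, so the Bnip3l level is given as uncertain.

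The direction of Bnip3l depended on the deposited table. In the authors' normalized values it stood at 2827, 3085, 2464, 3069 and 2736 in TfamAKO 1 to 5, against 2079, 2813, 2782, 2829 and 2965 in WT 1 to 5. The groups overlapped, with WT 1 lowest, and the log2 fold change was 0.08 (limma on log2(value + 1), adjusted p = 0.604). The ratio of normalized value to count, on the log2 scale and relative to the median gene of the library, averaged 0.13 in TfamAKO and -0.12 in WT for Bnip3l. The difference of 0.25 was reached or passed in size by 4.73% of the genes tested. For the other 8 genes this difference lay between -0.02 and 0.05. A fit of the counts with these per-gene ratios as offsets, chosen after the values were seen, gave Bnip3l a log2 fold change of 0.07 (edgeR adjusted p = 0.588). Because the offsets were made from the normalized values, this fit restates them and is not separate evidence on the direction.

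**Figure D2:**
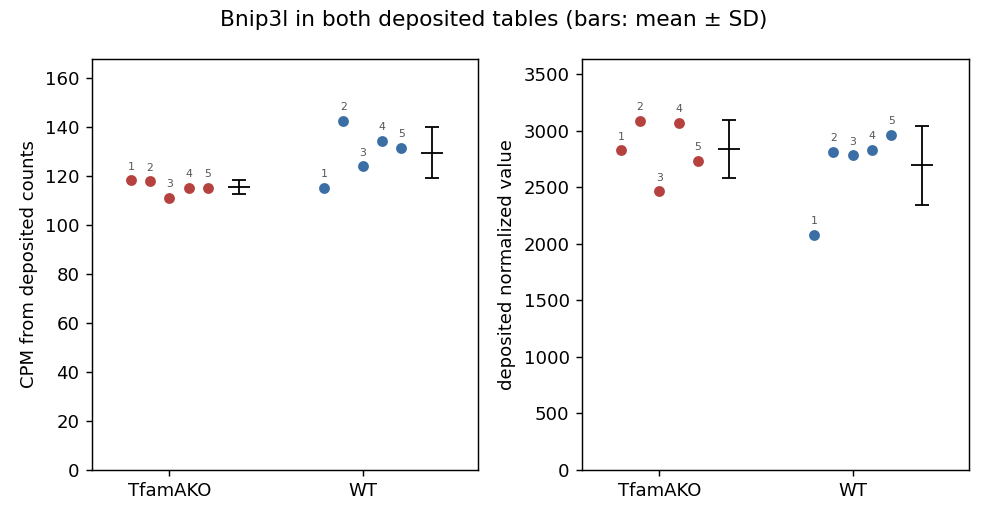
Bnip3l in 5 TfamAKO and 5 WT libraries, as CPM from the deposited counts on the left and as the deposited normalized value on the right, with the mean ± SD beside the points and both y axes from 0. TfamAKO libraries lie under 4 of 5 WT libraries in CPM, and the groups overlap in the normalized values.

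Bnip3, the paralog of Bnip3l and a target of the hypoxia-inducible factor HIF-1, was measured at 70.6, 79.6, 78.8, 71.2 and 77.1 CPM in TfamAKO 1 to 5, against 79.1, 87.2, 83.9, 85.7 and 80.6 CPM in WT 1 to 5. Only TfamAKO 2 reached into the WT range, above WT 1. The log2 fold change was -0.14 ± 0.06 (SE, edgeR adjusted p = 0.0600). Its adjusted p was under the threshold with upper-quartile scaling (0.0267) and in the DESeq2 Wald test (0.0428). Fundc1, an X-linked gene for the receptor that works in hypoxia, averaged 36.8 ± 2.56 CPM in TfamAKO and 37.0 ± 3.62 CPM in WT (SD, n = 5 each). Its log2 fold change was -0.01 with a 95% interval of -0.18 to 0.17, so a change of a size within that interval was not excluded.

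Pink1, the kinase that marks damaged mitochondria, was measured at 394, 440.3, 429, 449 and 488 CPM in TfamAKO 1 to 5, against 436, 540.4, 475, 489 and 459 CPM in WT 1 to 5. The groups overlapped, with TfamAKO 1 lowest and WT 2 highest. The log2 fold change was -0.12 with a 95% interval of -0.28 to 0.03 (edgeR adjusted p = 0.190). Ulk1, the initiating kinase, averaged 96.9 ± 8.48 CPM in TfamAKO and 98.8 ± 8.67 CPM in WT (SD, n = 5 each), with a 95% interval of the log2 fold change of -0.20 to 0.14. Map1lc3b was measured at 197, 191, 186, 188 and 182 CPM in TfamAKO 1 to 5, against 180.1, 229, 203, 213 and 208 CPM in WT 1 to 5. WT 1 was the lowest library and the other 4 WT libraries lay above all TfamAKO libraries. The log2 fold change of Map1lc3b was -0.13, with a 95% interval of -0.27 to 0.00 (edgeR adjusted p = 0.113), and without WT 1 it passed (log2 fold change -0.18, edgeR adjusted p = 0.0253).

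**Figure D3:**
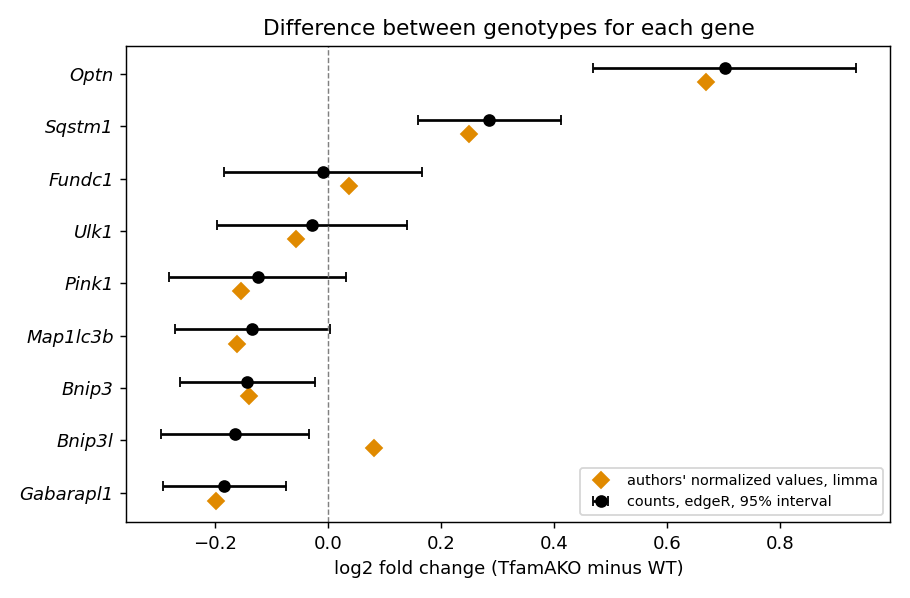
Log2 fold change (TfamAKO minus WT, x axis) of the 9 genes. Black points with bars are the fit on counts with its 95% interval, and orange diamonds the fit on the authors' normalized values; the diamond lies on the other side of 0 from the black point for Bnip3l (0.08) and for Fundc1 (0.04). Fundc1 passed in neither table.

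Per transcript length, taken from the longest APPRIS principal transcript of GENCODE M21, the 9 genes differed widely in level. In TfamAKO, Sqstm1 stood at 266 ± 17.9 and Gabarapl1 at 256 ± 10.4 CPM per kb (SD, n = 5), and their ranges overlapped. In WT, Gabarapl1 was highest at 291 ± 10.2 and Sqstm1 next at 218 ± 8.44 CPM per kb (SD, n = 5), with no overlap. Pink1 followed at 185 ± 14.4 CPM per kb in TfamAKO and 202 ± 16.4 in WT, where its range overlapped that of Sqstm1. Below them came Map1lc3b (74.4 ± 2.20 in TfamAKO and 81.6 ± 6.96 in WT), Bnip3 (43.0 ± 2.43 in TfamAKO and 47.4 ± 1.94 in WT) and Bnip3l (35.7 ± 0.860 in TfamAKO and 40.0 ± 3.23 in WT), all in CPM per kb. Ulk1 (18.6 ± 1.63 in TfamAKO and 19.0 ± 1.66 in WT) and Fundc1 (18.6 ± 1.29 in TfamAKO and 18.7 ± 1.82 in WT) overlapped in both groups, and Optn was lowest at 11.0 ± 1.72 CPM per kb in TfamAKO and 6.75 ± 0.445 in WT. These orders depend on the transcript whose length was used.

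The balance between paralogs was compared within libraries as the log2 ratio of counts, which no library scaling touches, by two-sided exact permutation tests adjusted over 4 ratios. Gabarapl1 to Gabarapl2 averaged 1.99 ± 0.03 in TfamAKO and 2.07 ± 0.03 in WT (SD, n = 5 each). All TfamAKO libraries lay below all WT libraries, a difference of -0.08 (exact permutation p = 0.00794, the smallest this test can give, adjusted p = 0.0317). In the authors' normalized values the difference was -0.09 and did not pass (exact permutation, adjusted p = 0.143). Gabarapl2 itself averaged 118 ± 6.56 CPM in TfamAKO and 126 ± 2.89 CPM in WT (SD, n = 5 each) and did not pass (edgeR adjusted p = 0.154).

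Bnip3 to Bnip3l averaged -0.62 ± 0.10 in TfamAKO and -0.63 ± 0.08 in WT as a log2 ratio (SD, n = 5 each), and the difference of 0.02 did not pass (exact permutation, adjusted p = 0.786). In the authors' normalized values, where Bnip3l itself stood higher, the difference was -0.22 and did not pass either (exact permutation, adjusted p = 0.143). Map1lc3b to Map1lc3a averaged 0.76 ± 0.07 in TfamAKO and 0.66 ± 0.14 in WT (SD, n = 5 each), and did not pass (exact permutation, adjusted p = 0.222). Ulk1 to Ulk2 was -0.29 in TfamAKO 1 and between 0.18 and 0.55 in TfamAKO 2 to 5, against -0.22 to -0.05 in WT. The mean log2 difference of Ulk1 to Ulk2, 0.29, did not pass (exact permutation, adjusted p = 0.111), and without TfamAKO 1 it was 0.40 and passed (exact permutation, adjusted p = 0.0159). It did not pass with any other single library left out (exact permutation, adjusted p between 0.169 and 0.254). Ulk2, the other ULK kinase of autophagy initiation, was at 115 CPM in TfamAKO 1 and at 72.7 to 92.0 CPM in TfamAKO 2 to 5, against 101 to 114 CPM in WT, with a log2 fold change of -0.30 ± 0.11 SE (edgeR adjusted p = 0.0497). This Ulk2 call stood at the threshold and was lost when any library except TfamAKO 1 was left out, with edgeR adjusted p between 0.0527 and 0.120. It was also lost with a choroid plexus covariate (log2 fold change -0.21, edgeR adjusted p = 0.283) and in the authors' normalized values (-0.32, limma adjusted p = 0.0857).

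**Figure D4:**
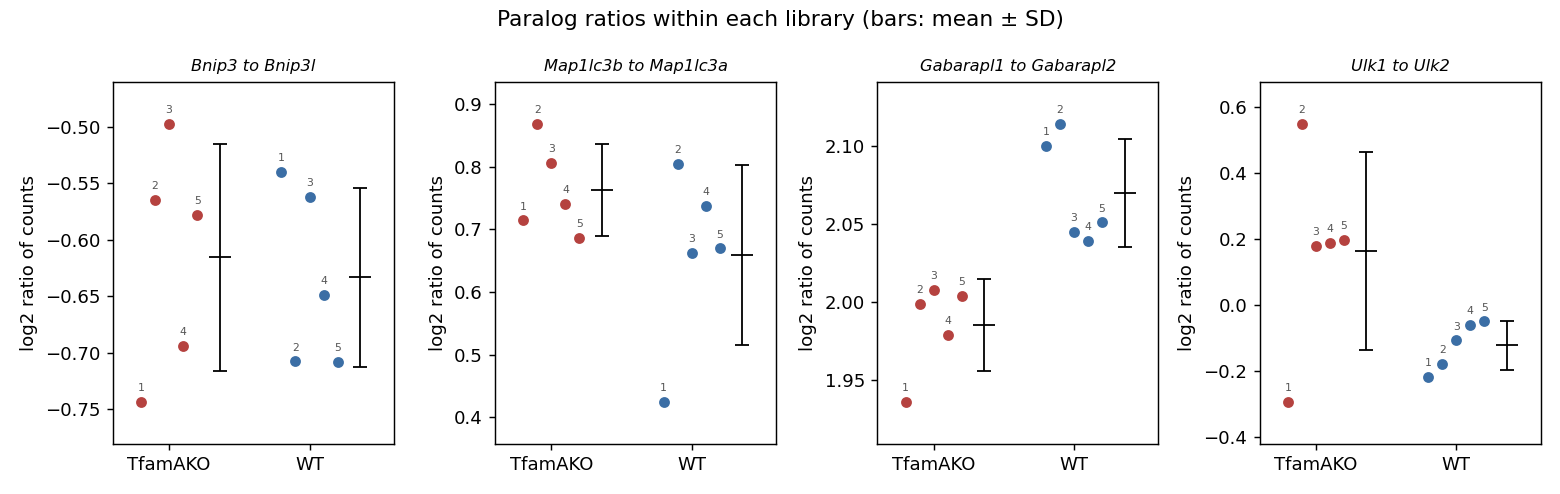
Log2 ratio of the counts of paralogs within each of 5 TfamAKO and 5 WT libraries, with the mean ± SD beside the points; the y axes do not start at 0. Gabarapl1 to Gabarapl2 separates the groups by 0.08, and TfamAKO 1 stands below the other TfamAKO libraries for Ulk1 to Ulk2.

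The rest of the pathway was read from 8 lists with 130 genes, all tested. Of these 32 rose and 18 fell, 38.5% against 37.4% of all genes. Without WT 3, 4 and 5, 22 genes of the lists passed in place of 50. Of the 50, those named here that then missed the threshold were Ulk2, Mlst8, Wdr45b, Atg9a, Becn1, Map1lc3a, Atg4a, Atg4d, Rtn3, Usp8, Usp15, Rhot2, Bcl2l1, Rab7, Vps11, Prkab1, Ldha, Egln1 and Kdm3a. Among genes of autophagy initiation and phagophore growth, 2 of 21 rose and 5 fell, with a median log2 fold change of -0.04. Wipi1, which binds the lipid that marks the growing membrane, rose (0.51 ± 0.09 on the log2 scale, edgeR adjusted p = 0.000960), as did its relative Wdr45b (0.30 ± 0.07). The lipid scramblase gene Atg9a (-0.20 ± 0.05) and Becn1, a subunit of the VPS34 lipid kinase complex (-0.16 ± 0.05), fell. Becn1 lost its call without WT 1 (edgeR adjusted p = 0.0527), TfamAKO 2 (0.0681) or TfamAKO 3 (0.0548), without TfamAKO 4 and 5 together (0.0542), without WT 3, 4 and 5 (0.186, at a log2 fold change of -0.15) and with a choroid plexus covariate (0.0582, at -0.18). In the authors' normalized values the log2 fold change of Becn1 was smaller, -0.05 (limma adjusted p = 0.637), and that of Atg9a was -0.14 (limma adjusted p = 0.0875). The count of 5 fallen genes was 1 without WT 1, TfamAKO 2 or TfamAKO 3, 2 without WT 3, and 3 without WT 4, WT 5 or TfamAKO 4. It was 1 in the authors' normalized values, with a choroid plexus covariate or without TfamAKO 4 and 5, 2 with the authors' per-gene factors as offsets, and 0 without WT 3, 4 and 5.

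Among ATG8 proteins and their conjugation enzymes, 2 of 14 rose and 2 fell, with a median of -0.10. Gabarap was measured at 131, 143, 135, 146 and 120 CPM in TfamAKO 1 to 5, against 107, 110, 108, 114 and 111 CPM in WT 1 to 5. It rose by 0.29 ± 0.06 on the log2 scale (edgeR adjusted p = 0.00252), while its relative Gabarapl1 fell. Map1lc3a fell by 0.23 on the log2 scale (SE 0.05, edgeR adjusted p = 0.00389). Of the proteases that trim ATG8 proteins, Atg4a rose (0.65 ± 0.17) and Atg4d fell (-0.45 ± 0.11). Atg4a was at an edgeR adjusted p of 0.0509 without TfamAKO 4 and 5. Without TfamAKO 1, 4 genes of the list fell.

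Other selective autophagy receptors split, with 3 of 12 higher, 3 lower and a median of 0.02. Tex264, a receptor for endoplasmic reticulum, averaged 88.9 ± 10.2 CPM in TfamAKO and 59.7 ± 2.38 CPM in WT (SD, n = 5 each) and rose (log2 fold change 0.57 ± 0.08, edgeR adjusted p = 0.000174). Stbd1, the glycogen receptor (1.33 ± 0.26), and Ncoa4, the ferritin receptor (0.25 ± 0.06), rose, and Rtn3, another receptor for endoplasmic reticulum (-0.20 ± 0.05), fell. Rtn3 missed the threshold in the authors' normalized values (-0.18 on the log2 scale, limma adjusted p = 0.0529) and with a choroid plexus covariate, where its log2 fold change was as large (-0.21, edgeR adjusted p = 0.0522). It also missed it without TfamAKO 4 and 5 (-0.15, edgeR adjusted p = 0.0675) and without WT 3, 4 and 5 (-0.19, edgeR adjusted p = 0.156). The count of fallen receptor genes was 1 without TfamAKO 4 and 5, and 0 without WT 3, 4 and 5 or with the covariate.

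In the list of PINK1 pathway genes and their regulators 6 of 20 genes rose and 3 fell, with a median of 0.03. The deubiquitinase gene Usp8 rose (0.19 ± 0.05 on the log2 scale), with 0.17 and a limma adjusted p of 0.0549 on the authors' normalized values. Usp15, another deubiquitinase (-0.39 ± 0.09), and Rhot2, the mitochondrial transport GTPase Miro2 (-0.33 ± 0.06, edgeR adjusted p = 0.000715), fell. The count of 6 risen genes was 2 without WT 5, 3 without TfamAKO 2 or TfamAKO 3, and 0 without WT 3, 4 and 5. It was 2 in the authors' normalized values, 3 with the per-gene factors as offsets and 1 with a choroid plexus covariate.

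Among partners of receptor-mediated mitophagy 4 of 13 rose and 0 fell by edgeR, with a median of 0.03. At an unadjusted p under the threshold 1 was lower, and DESeq2 called 1 lower. Those that rose were Csnk2a1, a catalytic subunit of the kinase CK2 that acts on FUNDC1 (0.32 ± 0.05 on the log2 scale, edgeR adjusted p = 0.000367), Fundc2 (0.38 ± 0.07), Fbxl4 (0.43 ± 0.09) and Bcl2l1 (0.33 ± 0.12). Fbxl4, a ubiquitin ligase subunit that limits BNIP3 and NIX protein, averaged 19.2 ± 0.833 CPM in TfamAKO and 14.2 ± 1.53 CPM in WT (SD, n = 5 each). Bcl2l1 lost its call when any of the 10 libraries except TfamAKO 1 was left out, with edgeR adjusted p up to 0.107, and did not pass on the authors' normalized values (0.29 on the log2 scale, limma adjusted p = 0.124). The count of fallen genes was 1 without WT 2 or TfamAKO 1.

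Among genes of autophagosome-lysosome fusion 4 of 14 rose and 0 fell by edgeR (2 lower at an unadjusted p under the threshold, 1 lower by DESeq2), with a median of 0.03. The SNARE genes Stx17 (0.47 ± 0.08) and Ykt6 (0.31 ± 0.05, edgeR adjusted p = 0.000746), the GTPase gene Rab7 (0.22 ± 0.06) and Vps11 of the HOPS tether (0.26 ± 0.07) rose on the log2 scale. With a choroid plexus covariate Rab7 (log2 fold change 0.20, edgeR adjusted p = 0.0926) and Vps11 (0.22, edgeR adjusted p = 0.0991) did not pass, at log2 fold changes close to those without it. The count of fallen genes was 1 without WT 2, TfamAKO 1 or TfamAKO 5.

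Among regulators of the MiT-TFE, FoxO, mTORC1 and AMPK systems 4 of 20 rose and 1 fell, with a median of 0.03. Sesn2, a stress-induced inhibitor of mTORC1, was measured at 67.6, 104, 95.9, 87.2 and 80.0 CPM in TfamAKO 1 to 5, against 19.1, 23.2, 22.3, 20.3 and 22.2 CPM in WT 1 to 5 (log2 fold change 2.02 ± 0.11, edgeR adjusted p = 2.33e-07). The groups lay far apart. Tfeb and Tfe3, transcription factors of autophagy and lysosome genes, rose by 0.80 ± 0.14 and 0.54 ± 0.08 on the log2 scale (edgeR adjusted p = 0.000922 and 0.000224). Prkab1, a subunit of AMPK, rose (0.54 ± 0.13) and did not pass on the authors' normalized values (0.39 on the log2 scale, limma adjusted p = 0.0757) or with a choroid plexus covariate (0.39, edgeR adjusted p = 0.0849). The 1 gene that fell, Mlst8 of mTORC1, named after its values were seen, had a log2 fold change of -0.20 ± 0.07 (edgeR adjusted p = 0.0354) and did not pass in the authors' normalized values, where it was larger (-0.24, limma adjusted p = 0.0753). It was smaller with a choroid plexus covariate (-0.12, edgeR adjusted p = 0.296) and without WT 3, 4 and 5 (-0.10, edgeR adjusted p = 0.506). The count of fallen genes was 0 without WT 2, 3, 4 or 5 or TfamAKO 2, 3 or 4, and 2 without TfamAKO 5.

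Of 16 HIF-1 target genes, a group to which Bnip3 belongs, 7 rose, 4 fell and 5 did not pass, with a median of 0.40. The share that passed was 68.8%, beside 37.4% of all genes, and the difference between the list and other genes was not tested. The count of fallen genes was 2 in the authors' normalized values and with a choroid plexus covariate, and 1 without WT 3, 4 and 5. Pfkfb3 (1.36 ± 0.12), Hk2 (1.03 ± 0.11), both of glycolysis, and the peptide hormone gene Adm (2.27 ± 0.34) rose on the log2 scale, and Ankrd37 (-1.06 ± 0.18, edgeR adjusted p = 0.000814) fell. Ldha (-0.19 ± 0.05), Egln1 (-0.19 ± 0.065) and Kdm3a (-0.33 ± 0.08) also fell, by less than Ankrd37. Bnip3, with a log2 fold change of -0.14, did not pass.

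**Figure D5:**
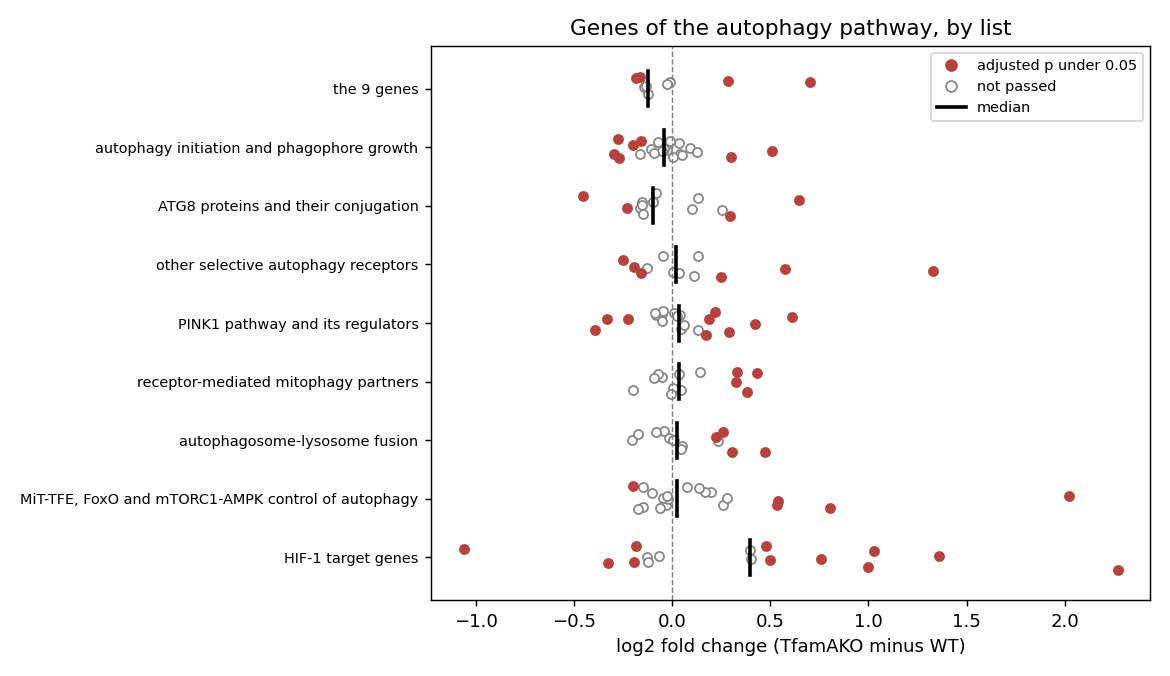
Log2 fold change (TfamAKO minus WT, x axis) of the 9 genes and of the 130 genes of 8 lists (rows), filled where the edgeR adjusted p was under 0.05, with the median as a black bar. Medians lie between -0.12 and 0.03 except for HIF-1 targets at 0.40, and Sesn2 (2.02) and Adm (2.27) lie farthest to the right.

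By likeness over the 10 libraries, after the group mean was subtracted from log2 CPM, Optn varied most like Psmc6 (Pearson's r 0.951), a proteasome subunit gene, Thnsl2 (0.941) and Utp14a (0.940), of 14789 candidates. Gabarapl1 varied most like the row for Gm49519 (0.963), Psip1 (0.952) and Ino80c (0.951). Genes measured in the same library also share its depth and its RNA preparation, and the values are a description.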

How the data were processed

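Hippocampal RNA of 5 TfamAKO and 5 WT mice was analysed from 2 deposited tables, with groups and replicate numbers taken from the sample titles. Per the labels' protocols, a TruSeq stranded kit was used on mRNA. Salmon (its version is not listed) and DESeq2 1.26.0 were used, per the submitters' processing notes. The genome build was not given in the sources used here. Deposited by the authors were estimated counts as whole numbers, so rounding changed nothing, and a table of normalized values, a signal whose scaling is not described.

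Counts were fitted with edgeR 4.0.16 (R 4.3.3): filterByExpr (minimum count 10), TMM factors, genotype as the only term, two-sided quasi-likelihood test, Benjamini-Hochberg adjustment over 16180 genes, threshold 0.05. SE is the absolute log2 fold change over the square root of F. Alternatives used other scalings and filters, DESeq2 1.42.0, limma 3.58.1 (voom, or log2 of the normalized values with pseudocounts of 0.5, 1 and 5), a replicate block, a choroid plexus covariate, and left-out libraries. Ratios had a pseudocount of 0.5. Of these steps, the main edgeR fit was tested on simulated counts. Far fewer genes changed there than were called here, and no simulated library carried extra choroid plexus RNA. Changes as small as those of Sqstm1, Gabarapl1 and Bnip3l were not simulated. The text names the 9 genes, up to 4 genes per list with the smallest p (1 such gene is counted in its list and not reported here), their paralogs, and the 3 genes most like 2 of the 9. The 9 genes and the lists were chosen with earlier results of these data known. P-values set the difference between genotypes against the spread between mice. Reads without molecular identifiers are not independent molecules.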

Additional observations from a re-analysis of the deposited data

Results flagged for a closer look

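The highest or lowest library stood apart from the other 4 of its group in 5 of 90 groups of 5 examined; about 1 in 20 would by chance. Stbd1 was high in TfamAKO 3 (5.54 CPM). Ncoa4 was low in WT 1 (80.6 CPM). Bcl2l1 was low in TfamAKO 1 (103 CPM). Prkab1 was low in TfamAKO 1 (14.0 CPM). Pfkfb3 was low in WT 1 (30.4 CPM). None of the 9 mitophagy and autophagy genes and none of the 4 paralog ratios met this criterion.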

How the results depend on the processing

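Optn passed in all 24 alternatives (log2 fold change 0.60 to 0.77, adjusted p up to 0.0239). Sqstm1 (0.25 to 0.32, up to 0.0550) and Gabarapl1 (-0.23 to -0.16, up to 0.0901) passed in 23, missing it without WT 3, 4 and 5. There the genes higher among the 9 numbered 1 and those lower 0, against 2 and 2. Fewer libraries were fitted there, and 2752 of all genes passed, against 6048, and 22 genes of the pathway lists, against 50. With the choroid plexus score as covariate 33 did. The genes lower among the 9 numbered 1, Bnip3l having lost its call, with DESeq2 size factors, no filter on low counts, limma-voom, the authors' normalized values at each pseudocount (0.5, 1 and 5), the authors' per-gene factors as offsets, without TfamAKO 4 and 5, and with the choroid plexus score. Leaving out each library gave 1 to 3. Bnip3l turned to 0.08 in the normalized values (0.0807, 0.0807 and 0.0805) and to 0.0741 with the offsets. The offsets were made from the normalized values, so the fit with them is not a separate result. The log2 ratio of Gabarapl1 to Gabarapl2 was -0.0878 in the normalized values (exact permutation, adjusted p = 0.143) and -0.0891 without TfamAKO 4 and 5 (exact permutation p = 0.0179, the smallest that design allows, adjusted p = 0.0714). The log2 ratio of Ulk1 to Ulk2 ran from 0.191 to 0.401 with each library left out. Same-numbered mice did not deviate together (correlations -0.142 to 0.0691 over 16180 genes, 0 of 5 TfamAKO mice closest to their own number). No pairing by number was seen, but a check on 5 numbers cannot exclude one. With a replicate block 1 of the 9 genes was lower, Bnip3l having an edgeR adjusted p of 0.0745, and 5679 of all genes passed.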
